A study of Mus musculus with 18 samples.

Results

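The clustered replication-dependent histone genes were followed through 4 sorted lymphocyte populations and 2 macrophage populations of mouse liver. Members were the annotated protein-coding genes whose symbol is H2ac, H2bc, H3c or H4c with a number, or H1f1 to H1f5. The rule reads symbols and not values. The annotation held 67 of them, 5 H1, 18 H2A, 19 H2B, 12 H3 and 13 H4 genes. Of these, 63 of the 13671 tested genes were members in the lymphocyte table and 45 of 13670 in the macrophage table, where a gene was tested if at least 3 libraries held at least 10 counts. By the GRCm39 annotation 53 members lie on chromosome 13 between 21899933 and 24118834, 10 on chromosome 3 between 96127181 and 96177448, 3 on chromosome 11 between 58838848 and 58847656, and H4c16 alone on chromosome 6. The transcripts of 58 members have 1 exon, so most members have no intron.

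Core histones H2A, H2B, H3 and H4 form the nucleosome around which DNA is wound, and the linker histone H1 binds the DNA between nucleosomes. Cells make most of these proteins during S phase, when new DNA has to be packaged, from tandem gene copies that encode nearly or fully identical proteins. Their mRNAs normally end in a conserved stem-loop, which the stem-loop binding protein Slbp holds, and carry no poly(A) tail. Some of the genes can also give spliced or polyadenylated transcripts, in particular in cells that no longer divide.

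The study placed MC38 cells, a mouse colon adenocarcinoma line, into the spleen of female C57BL/6J mice of 8 to 10 weeks, and cells were sorted from liver 20 days later. All lymphocytes were lineage-negative, CD45+ and NKp46+. MFL NK were the CD49a- CD49b+ cells of metastasis-free liver (MFL) and LM CD49a- NK the same gate in the liver metastasis (LM), whereas LM CD49a+ NK were CD49a+ CD49b+ cells of the metastasis and MFL ILC1 (type 1 innate lymphoid cells) were CD49a+ CD49b- cells of metastasis-free liver. The macrophages were lineage-negative CD45+ CD11b+ cells of the metastasis (metastasis-associated macrophages, MAMs) with high F4/80 (F4/80hi MAM) or lower F4/80 (F4/80int MAM, called F4/80low in the labels). Every group had 3 libraries. Each lymphocyte library came from a pool of 6 to 8 samples; whether macrophages were pooled was not given in the sources used here. Metastases were digested with Liberase and metastasis-free liver was dispersed mechanically, so tissue site and dissociation cannot be told apart.

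The stem-loop is the feature of the mRNA that the members share and that the naming rule did not use. Searching the 200 bases after each stop codon for the 16-base consensus with at most 3 mismatches found a stem-loop in 64 of 67 members (95.5%), against 8 of 4452 other protein-coding genes of the same chromosomes (0.180%). It lay 21 to 58 bases after the stop codon, and none was found for H2bc21, H4c2 and H4c11. The members that the results below turn on are shown with the stem, loop and stem in capitals and the 5 flanking bases on either side in lower case, 5′ to 3′, with GRCm39 positions of the capitals:
H1f1, chr13:23948375-23948390 (+): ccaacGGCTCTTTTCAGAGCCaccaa
H1f2, chr13:23923495-23923510 (+): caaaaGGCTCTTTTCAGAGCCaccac
H1f4, chr13:23805765-23805780 (-): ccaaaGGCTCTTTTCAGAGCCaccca
H2ac18, chr3:96153348-96153363 (+): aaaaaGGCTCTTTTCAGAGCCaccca
H2ac19, chr3:96147100-96147115 (-): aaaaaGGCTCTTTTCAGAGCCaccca
H2ac25, chr11:58845998-58846013 (+): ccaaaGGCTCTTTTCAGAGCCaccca
H2bc8, chr13:23756017-23756032 (+): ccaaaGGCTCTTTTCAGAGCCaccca
H2bc12, chr13:22220470-22220485 (+): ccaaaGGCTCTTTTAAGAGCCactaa
H3c2, chr13:23936803-23936818 (+): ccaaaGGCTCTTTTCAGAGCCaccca
H3c6, chr13:23746077-23746092 (-): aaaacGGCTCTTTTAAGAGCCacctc
H4c4, chr13:23765933-23765948 (+): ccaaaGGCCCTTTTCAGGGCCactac
H4c8, chr13:23715628-23715643 (+): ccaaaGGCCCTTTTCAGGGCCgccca
H4c9, chr13:22225136-22225151 (-): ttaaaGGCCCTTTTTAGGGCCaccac
H2bc12 and H3c6 are included for their loop and H4c9 for its loop within the H4 stem. The core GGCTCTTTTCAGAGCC was present in 42 members, all 5 H1 genes with 15 H2A, 14 H2B and 8 H3 genes, and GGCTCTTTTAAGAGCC in 8. H4 genes had a stem of their own, with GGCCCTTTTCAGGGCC in 8 of them, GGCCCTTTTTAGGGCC in 2 and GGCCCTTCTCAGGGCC in 1.

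The classes also differed in their start regions. RefSeq start regions of GRCm38.p6, 250 bases before to 50 after the start, were matched for 57 members and searched on both strands, and none of the 4 motifs searched contains another. The octamer ATTTGCAT, the motif of the POU factors, was present in 6 of 17 H2A regions (35.3%) and 6 of 14 H2B regions (42.9%) and in no H1, H3 or H4 region, against 1.75% of all 27025 regions. Some H2A and H2B genes lie head to head, such as H2ac8 (- strand, up to 23755394) and H2bc8 (+ strand, from 23755570). Their start regions can overlap, so the same motif site can be counted in both classes. Shared sites were not counted apart. The E2F-type sequence GGCGGGAA was present in 5 of 11 H4 regions (45.5%) and in no other class, against 2.24% of all. CCAAT was found in every matched H1, H2A, H2B and H3 region and in 3 of 11 H4 regions (27.3%), against 37.9% of all. TATAAA was found in 4 of 5 H1, 11 of 17 H2A, 7 of 14 H2B, 4 of 10 H3 and 8 of 11 H4 regions, against 14.2% of all.

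Because the copies are near-identical, reads from one can be counted for another. Over the 67 members a median of 58.9% of a transcript's 31-base words also occurred in another gene's transcript, with a median of 3.93% for H1, 75.4% for H2A, 56.3% for H2B, 63.1% for H3 and 36.6% for H4. Single core histone genes are therefore uncertain, and each class is also given as the sum of its members. In the lymphocytes the median coefficient of variation within groups was 0.603 over the 23 members with under 50% shared words and 0.692 over the 40 others. In the MAMs it was 0.196 over 19 and 0.387 over 26 members.

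Lymphocyte libraries held 8795721 to 14386834 counts and MAM libraries 21278959 to 32267015. Members took 0.123 to 0.466% of the counts in lymphocytes and 0.0198 to 0.0290% in MAMs; the lymphocyte libraries were made from total RNA and the MAM libraries from poly(A)-selected RNA, and the tables were normalized separately, so kit and cell type cannot be told apart there. LM CD49a- NK 1 and MFL ILC1 1 stood apart by members without a count, with 20 and 26 of the 63 tested members at 0, whereas the other 10 lymphocyte libraries had 0 to 11. Over all genes, 9885 and 11651 reached 10 counts in these libraries, in a range from 9608 (LM CD49a- NK 2) to 13218 (MFL ILC1 2). Mitochondrial, rRNA and small RNA genes took 15.2% of the counts in MFL ILC1 1, the highest share, and 3.68% in LM CD49a- NK 2, the lowest. Itga1, which encodes CD49a, was at 663 ± 17.5 CPM (counts per library total, with TMM scaling; SD, n = 3) in MFL ILC1, 134 ± 26.5 in LM CD49a+ NK and 11.4 ± 5.61 in LM CD49a- NK. Eomes, an NK cell regulator, was at 20.3 CPM on average in MFL ILC1 and 685 in LM CD49a+ NK. H2ac1, H2bc1 and H3c14 had no count in any lymphocyte library, and H2ac19 had counts in LM CD49a- NK 2 only, at 67.2 CPM, so these 4 were not tested. All 31-base words of H3c14 and of H2ac19 also occur in the lncRNA Gm20634, so their reads could be counted there. H3c13 and H3c15 share 80.6 and 64.2% of their words with Gm20634, which the H3 sums leave out.

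In all 4 lymphocyte populations H1 transcripts made up a large part of the member counts, between 37.5 and 63.6% (counts, not corrected for length). Per kilobase of transcript the members with the highest mean level in lymphocytes were H1f2 with 541, H2ac18 with 402 and H1f4 with 241 CPM per kb. The summed level of all 5 classes was 4444, 4196 and 2305 CPM in MFL NK, 2595, 2523 and 3114 CPM in LM CD49a- NK, 4801, 3714 and 3327 CPM in LM CD49a+ NK, and 1289, 2151 and 1506 CPM in MFL ILC1. All 3 MFL ILC1 libraries were below every other lymphocyte library, and all 3 LM CD49a+ NK libraries were above every LM CD49a- NK library. In bulk samples fewer cells that carry these mRNAs and less of them per cell cannot be told apart.

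**Figure D1:**
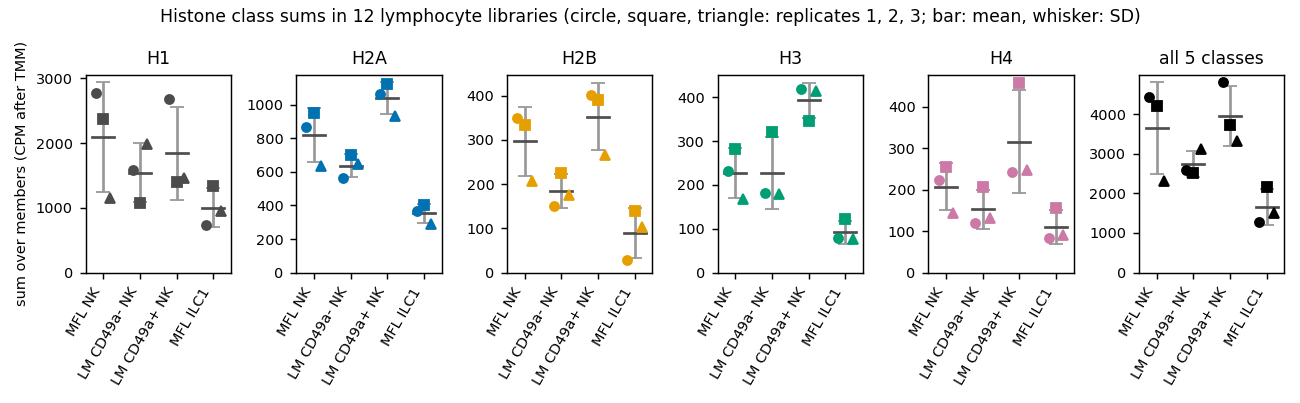
Summed level of each histone class (CPM, TMM-scaled) in the 12 lymphocyte libraries; circles, squares and triangles are replicates 1, 2 and 3, bars the mean of 3 libraries and whiskers the SD. H2B sums lay between 266 and 401 CPM in LM CD49a+ NK and between 28.1 and 139 CPM in MFL ILC1.

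Within the metastasis, LM CD49a+ NK had higher summed core histone transcripts than LM CD49a- NK. H2A summed to 1065, 1124 and 934 CPM in LM CD49a+ NK and to 563, 698 and 648 CPM in LM CD49a- NK (1041 ± 97.6 against 636 ± 68.4, a log2 ratio of 0.71). H2B stood at 353 ± 75.0 against 184 ± 38.3 CPM (0.94), H3 at 393 ± 40.2 against 227 ± 81.9 (0.79) and H4 at 317 ± 123 against 153 ± 47.3 (1.05). In these 4 classes the libraries of the groups did not overlap. H1 overlapped, at 1844 ± 718 against 1544 ± 456 CPM, a log2 ratio of 0.26 that turned to -0.11 without LM CD49a+ NK 1. The sums carry no p-value because an exact permutation test of 3 against 3 libraries cannot go below 0.1.

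The test across all genes called 1 member between these NK populations. By the quasi-likelihood test of edgeR, with p adjusted after Benjamini and Hochberg over all 13671 genes and called under 0.1, H4c4 was higher in LM CD49a+ NK and no member was lower, against 0.0658% of all genes called higher and 0.0731% called lower (0.139% in either direction). H4c4, a core histone H4 gene with the H4 stem shown above, was at 115, 98.2 and 63.5 CPM in LM CD49a+ NK and at 25.6, 17.6 and 29.7 CPM in LM CD49a- NK. The groups did not overlap, and the log2 fold change was 1.92 ± 0.38 (SE; adjusted p = 0.0846). The call was kept without LM CD49a- NK 3 and without LM CD49a+ NK 3 and lost without any other single library (adjusted p 0.0403 to 0.290). A replicate block, an alternative given at the end, also ended the call. DESeq2, another alternative given there, called more members higher, and 554 genes in all against 19 by edgeR. By direction alone 50 of the 63 members (79.4%) were higher in LM CD49a+ NK, against 50.4% of all genes, and the median log2 fold change was 0.85 over members and 0.01 over all genes. The 10 members at 0 in at least 2 libraries of a group have fold changes that hang on the prior count, and without them the median was 0.81.

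In this comparison 11 members, 2 H1, 4 H2A, 1 H2B, 2 H3 and 2 H4 genes, were higher in every LM CD49a+ NK library than in any LM CD49a- NK library (5.68% of all genes were), and none was lower in every library (4.10% of all genes). Among the H1 genes, H1f1 had 30.7, 43.7 and 66.5 CPM against 8.90, 24.3 and 10.5 CPM, and H1f5 had 222, 55.4 and 54.3 against 8.90, 44.0 and 47.2 CPM. Neither passed the test across all genes, with log2 fold changes of 1.69 ± 0.62 (SE; adjusted p = 0.376) and 1.73 ± 0.62 (adjusted p = 0.369). H1f2 and H1f4, by contrast, overlapped between the groups, with 1270, 625 and 821 CPM of H1f2 in LM CD49a+ NK and 818, 427 and 1116 CPM in LM CD49a- NK. H2ac10, which the study lists in a signature of CD49a+ NK cells made from these same libraries, had 70.7, 32.6 and 49.4 CPM against 8.90, 0 and 10.1 CPM (3.00 ± 1.03, adjusted p = 0.355). H2bc23, of the same signature and so no independent evidence either, had 13.8, 19.5 and 0 CPM in LM CD49a+ NK and 0, 0 and 7.87 in LM CD49a- NK. H2ac18, on chromosome 3, was at 278, 433 and 231 CPM against 174, 155 and 226 CPM (0.77 ± 0.30, adjusted p = 0.379). H3c4, picked after its values were seen, had 23.4, 33.3 and 37.4 CPM in LM CD49a+ NK and 0.111, 0 and 6.85 CPM in LM CD49a- NK, and 6.53, 20.5 and 9.45 CPM in MFL NK.

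**Figure D2:**
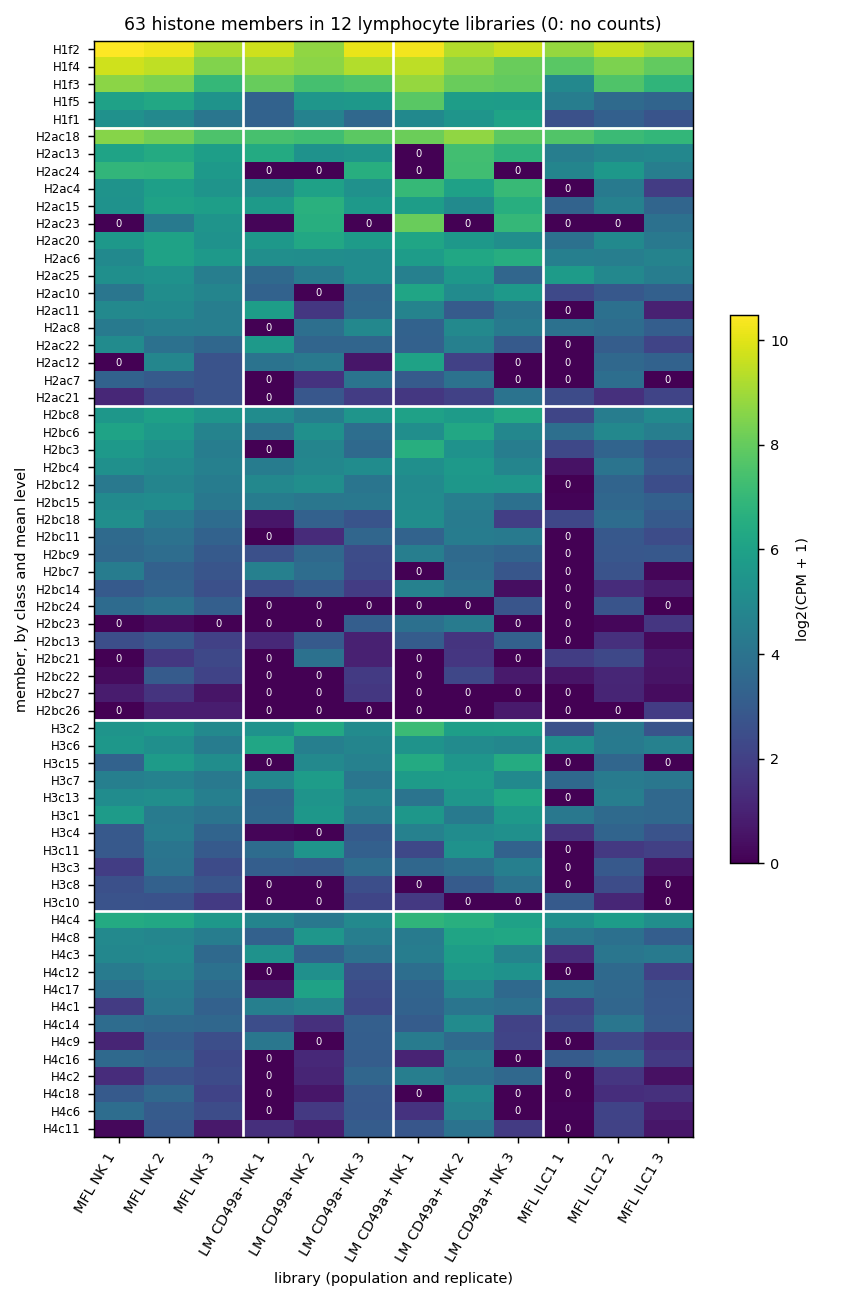
Level of the 63 tested members (rows, grouped by class) in the 12 lymphocyte libraries (columns) as log2(CPM + 1), with 0 marked. MFL ILC1 1 has 26 members at 0 and LM CD49a- NK 1 has 20, and look-alike copies such as H2ac23 and H2ac24 alternate between libraries.

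Against NK cells of metastasis-free liver, LM CD49a+ NK had higher H3 sums and no member that passed the test. H3 was at 419, 347 and 413 CPM in LM CD49a+ NK and at 231, 281 and 168 CPM in MFL NK, so that every metastasis library lay above (log2 ratio 0.79). The sums of H1, H2A, H2B and H4 overlapped, with log2 ratios of -0.19, 0.34, 0.25 and 0.61, and the sum of all classes differed by 0.11, which turned negative without LM CD49a+ NK 1 (-0.05) or without MFL NK 3 (-0.13). edgeR's quasi-likelihood test called 0 members, against 0.424% of all genes called higher and 0.219% called lower (0.644% in either direction). At an unadjusted p under 0.05 it had 1 member higher and 1 lower (1.59% each), where 3.81% of all genes were higher and 6.02% lower, and DESeq2 called 0 members of 367 genes in all. Over members the median log2 fold change was 0.39, with 45 of 63 higher, and over all genes it was -0.04. The libraries did not overlap for 6 members that were higher (7.0% of all genes) and 3 that were lower (13.1% of all genes).

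H3c2, an H3 gene of the large cluster, had 141, 58.1 and 59.8 CPM in LM CD49a+ NK and 42.2, 48.8 and 29.4 CPM in MFL NK. H2ac4 had 128, 63.5 and 132 CPM against 40.5, 59.9 and 41.8 CPM. Both were higher in every metastasis library, with log2 fold changes of 1.11 ± 0.53 (SE; adjusted p = 0.514 by edgeR) for H3c2 and 1.18 for H2ac4. H1f5, 0.87 on the same scale, was at -0.15 without LM CD49a+ NK 1, the library with 222 CPM of it.

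CD49a- NK cells of the metastasis and of metastasis-free liver overlapped in the sum of every class. The log2 ratios of LM CD49a- NK over MFL NK were -0.44 for H1, -0.37 for H2A, -0.69 for H2B, 0.00 for H3 and -0.44 for H4. edgeR called 0 members, against 0.0658% of all genes called higher and 0.00731% called lower (0.0731% in either direction); at an unadjusted p under 0.05 it had 3 lower (4.76%) and none higher, near the 4.12% and 2.69% of all genes, and DESeq2 called 1 member of 159 genes in all. Without LM CD49a- NK 3, edgeR called 1 lower, and the share of all genes called in that fit is not given here. The median log2 fold change was -0.47 over members and -0.09 over all genes, with 45 of 63 members lower by direction. The libraries did not overlap for 7 members that were lower (12% of all genes) and for none that was higher (4.24%).

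Of these, H4c4 was at 83.8, 77.2 and 47.3 CPM in MFL NK, above the 17.6 to 29.7 CPM of LM CD49a- NK (-1.51 ± 0.37 in log2, SE; adjusted p = 0.269 by edgeR). H2ac10 was at 16.2, 34.4 and 26.6 CPM in MFL NK (-2.02 ± 0.99, adjusted p = 0.748). H2bc8, one of the higher H2B genes, was at 45.3, 60.5 and 43.7 CPM in MFL NK and at 33.7, 20.6 and 43.2 CPM in LM CD49a- NK. For H4c4 and H2ac10, MFL NK lay between LM CD49a- NK and LM CD49a+ NK in mean level, and it overlapped with LM CD49a+ NK in both. The 2 comparisons share the LM CD49a- NK libraries.

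In metastasis-free liver, ILC1 had less histone transcript than NK cells in most of the members. All classes summed to 1649 ± 449 CPM in MFL ILC1 and 3648 ± 1170 CPM in MFL NK, a log2 ratio of -1.15. H2A (-1.21), H2B (-1.73) and H3 (-1.29) did not overlap; H1 (-1.07) and H4 (-0.91) did. H2B stood at 28.1, 139 and 102 CPM in MFL ILC1 and at 349, 335 and 207 CPM in MFL NK. Without MFL ILC1 1, the library with 26 members at 0, the ratio was -1.0 for all classes and -1.30 for H2B.

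By edgeR 3 members fell in MFL ILC1 and none rose, against 1.66% of all genes called lower and 1.37% called higher (3.03% in either direction). DESeq2 called more members lower, and 666 genes in all against 414 by edgeR, as given at the end. H1f4, a linker histone gene, had 221, 340 and 249 CPM in MFL ILC1 and 839, 714 and 360 CPM in MFL NK (log2 fold change -1.24 ± 0.34, SE; adjusted p = 0.0736). H2ac15 had 8.99, 23.2 and 9.84 CPM against 39.9, 65.4 and 57.0 CPM (-1.95 ± 0.50, adjusted p = 0.0474). H3c2 had 5.09, 17.7 and 5.58 CPM against the MFL NK values above (-2.08 ± 0.55, adjusted p = 0.0575). None of the 3 overlapped between the groups. Each call was lost with some libraries left out. H1f4 and H3c2 were lost without MFL NK 1, MFL NK 2, MFL ILC1 1 or MFL ILC1 3, and H2ac15 without MFL NK 2, MFL NK 3, MFL ILC1 1 or MFL ILC1 3. The count of members called lower was 0 without MFL NK 2, MFL ILC1 1 or MFL ILC1 3, 1 without MFL NK 1, and 6 without MFL ILC1 2, LM CD49a- NK 1, LM CD49a- NK 2 or LM CD49a+ NK 1. The share of all genes called in these fits is not given here.

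By direction 59 of the 63 members were lower in MFL ILC1, with a median log2 fold change of -1.42 against 0.00 over all genes. All 3 MFL ILC1 libraries were below all 3 MFL NK libraries for 32 members (13.1% of all genes), made up of 3 H1, 10 H2A, 11 H2B, 4 H3 and 4 H4 genes, and above them for none (12.1%). H1f1 and H1f5 missed the threshold, with adjusted p = 0.107 and 0.106 by edgeR and a log2 fold change of -2.13 for each. H1f2 had 455, 780 and 566 CPM in MFL ILC1 and 1431, 1208 and 604 CPM in MFL NK, so that MFL NK 3 lay among the MFL ILC1 values.

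Of the 5 lymphocyte comparisons, the ratios of the H2A, H2B, H3 and H4 sums were largest, though not that of H1, between LM CD49a+ NK and MFL ILC1, the 2 populations that carry CD49a, which differ in site as well as in cell type. No class overlapped, with log2 ratios of 0.88 for H1, 1.56 for H2A, 1.97 for H2B, 2.09 for H3 and 1.52 for H4, and 1.26 for all classes. H3 summed to 393 ± 40.2 CPM in LM CD49a+ NK and to 78.4, 123 and 76.3 CPM in MFL ILC1. Without MFL ILC1 1 the ratio was 1.11 for all classes and 1.55 for H2B.

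By edgeR 7 members were higher in LM CD49a+ NK and none was lower, against 2.27% of all genes called higher and 1.27% called lower (3.55% in either direction). They were the linker genes H1f1 and H1f5, the H2A genes H2ac4, H2ac6, H2ac15 and H2ac18, and H3c2. H3c2 rose by a log2 fold change of 3.19 ± 0.57 (SE; adjusted p = 0.00418) and kept its call without each of the 12 libraries in turn. H1f5 had 222, 55.4 and 54.3 CPM against 21.0, 11.2 and 9.27 CPM in MFL ILC1 (3.00 ± 0.65, adjusted p = 0.0160), and the call was lost without LM CD49a+ NK 1. H1f1 had 5.09, 8.33 and 5.67 CPM in MFL ILC1, below all 3 LM CD49a+ NK values above (2.88 ± 0.65, adjusted p = 0.0206), and lost its call without LM CD49a+ NK 3 or MFL ILC1 3. H2ac4 had 0, 18.6 and 2.65 CPM in MFL ILC1 (3.91 ± 0.98, adjusted p = 0.0425), and lost its call without LM CD49a+ NK 1, LM CD49a+ NK 3 or MFL ILC1 3. H2ac15 had 56.0, 31.3 and 93.9 CPM in LM CD49a+ NK (2.10 ± 0.50, adjusted p = 0.0306), and lost its call without LM CD49a+ NK 3, MFL ILC1 1 or MFL ILC1 3. H2ac18 rose less, with 120 to 199.5 CPM in MFL ILC1 and 231 to 433 CPM in LM CD49a+ NK (1.03 ± 0.30, adjusted p = 0.0946), and kept its call without 5 of the 12 libraries. H2ac6 had 54.2, 75.5 and 92.2 CPM against 21.8, 21.4 and 24.7 CPM (1.71 ± 0.39, adjusted p = 0.0227); it lost its call without MFL ILC1 2, MFL ILC1 3 or LM CD49a+ NK 3, and it is outside the rule for named genes and is given here because it was called. The count of members called was 2 without MFL ILC1 3, 3 without LM CD49a+ NK 3 and 12 without LM CD49a- NK 2. The share of all genes called in these fits is not given here. DESeq2 called more members higher, and 1016 genes in all against 485 by edgeR, as given at the end.

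By direction 57 of 63 members were higher, with a median log2 fold change of 1.78 against -0.07 over all genes. For 29 members, 3 H1, 6 H2A, 8 H2B, 7 H3 and 5 H4 genes, all LM CD49a+ NK libraries were above all MFL ILC1 libraries (9.26% of all genes), and for none were they below (13.8%). H2ac10 was among them, with 3.90, 6.43 and 8.42 CPM in MFL ILC1, and so was H4c4, with 36.0, 54.1 and 35.7 CPM. H1f2 and H1f4 were not, with log2 fold changes of 0.59 and 0.76. Each lymphocyte population takes part in more than 1 comparison, so these counts are not independent of each other.

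**Figure D3:**
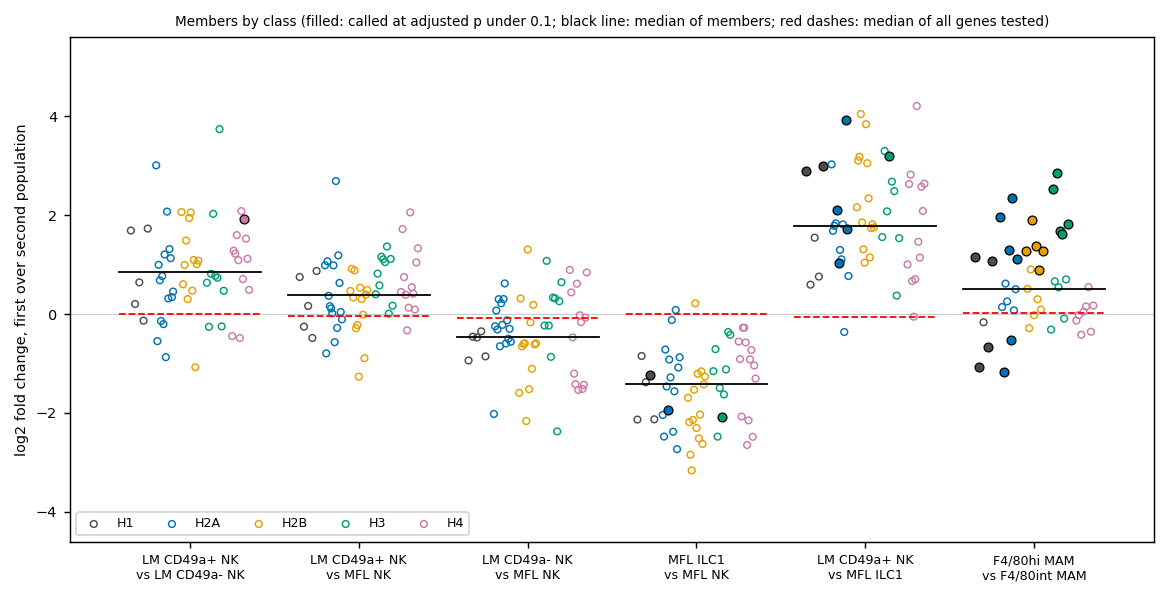
Log2 fold change (edgeR, TMM) of each tested member in the 5 lymphocyte comparisons and the MAM comparison; filled points passed an adjusted p of 0.1, the black line is the median of the members and the red dashes the median of all genes. Members at 0 in at least 2 libraries of a group are not drawn. Member medians run from -1.42 in MFL ILC1 against MFL NK to 1.78 in LM CD49a+ NK against MFL ILC1, and the medians of all genes lie between -0.09 and 0.01.

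Look-alike copies were not resolved from each other in the lymphocyte libraries. The H2A genes H2ac23 (chr13:21994635-21995114, + strand) and H2ac24 (chr13:22017196-22017677, - strand) share 93.8 and 93.4% of their 31-base words. In LM CD49a+ NK, H2ac23 had 269, 0 and 125 CPM where H2ac24 had 0, 155 and 0 CPM. In MFL NK, H2ac23 had 0, 18.6 and 42.5 CPM and H2ac24 117, 115 and 48.3 CPM. Replicates of 1 group thus gave nearly all counts to the one or the other copy, and one of them held under 1% of the pair's counts in 8 of 11 lymphocyte libraries with counts. The same was the case in 7 of 9 libraries for H2bc23 and H2bc24, in 6 of 12 for H3c10 and H3c11 and in 4 of 11 for H4c17 and H4c18. In the MAM libraries it was the case in 0 of 6, 0 of 6, 1 of 6 and 0 of 6. These pairs were picked for their sequence and split after the values were seen.

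Summed over both copies, H2ac23 and H2ac24 were at 183 ± 76.1 CPM in LM CD49a+ NK, 114 ± 21.6 in MFL NK, 62.9 ± 54.4 in LM CD49a- NK and 36.3 ± 10.4 in MFL ILC1. The signature gene H2bc23 together with H2bc24 was at 13.1 ± 6.87 CPM in LM CD49a+ NK, 11.4 ± 3.45 in MFL NK, 2.62 ± 4.54 in LM CD49a- NK and 2.65 ± 2.92 in MFL ILC1. H2bc23 alone was at 0, 0.221 and 0 CPM in MFL NK, where H2bc24 was at 11.6, 14.6 and 7.91 CPM, so 2 LM CD49a+ NK libraries stood above MFL NK in the single gene, while the sums overlapped. H3c10 with H3c11 (18.1 ± 18.2 CPM in LM CD49a+ NK and 14.2 ± 6.27 in MFL NK) and H4c17 with H4c18 (26.8 ± 28.7 and 22.1 ± 8.19) spread more than their means differed. The H2A genes H2ac18 and H2ac19 on chromosome 3 carry the same stem-loop and flanks. In 11 of 12 lymphocyte libraries all of their counts went to H2ac18, at 120 to 433 CPM, and in MAMs nearly all went to H2ac19, at 11.0 to 31.7 CPM. Adding the lncRNA Gm20634, which overlaps H2ac18 on the same strand, the 3 genes summed to 404 ± 110 CPM in LM CD49a+ NK, 343 ± 129 in MFL NK, 247 ± 32.8 in LM CD49a- NK and 196 ± 57.6 in MFL ILC1.

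**Figure D4:**
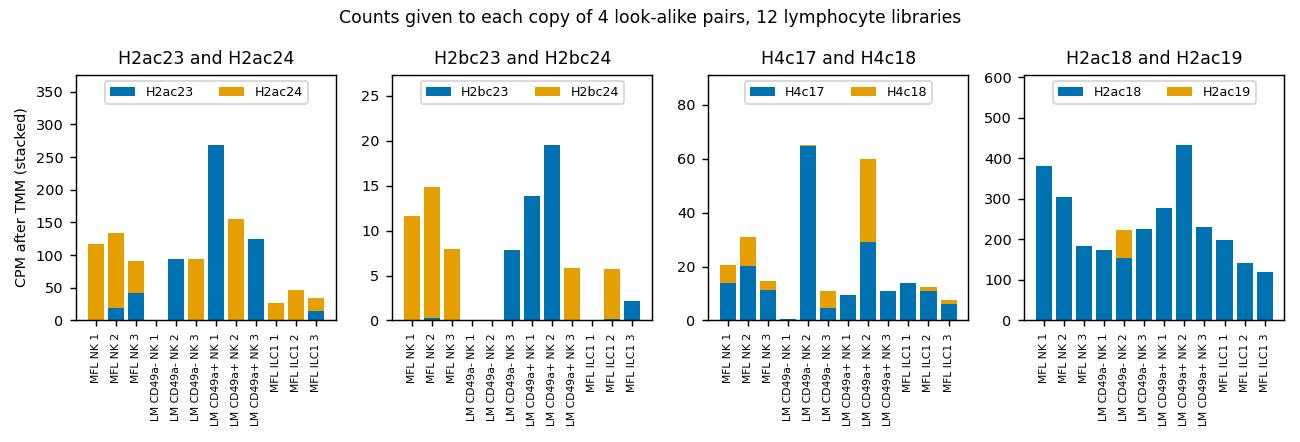
Stacked levels (CPM) of 4 pairs of H2A, H2B and H4 copies in each lymphocyte library, H2ac23 with H2ac24, H2bc23 with H2bc24, H4c17 with H4c18 and H2ac18 with H2ac19. Of H2ac23 and H2ac24 one copy holds under 1% of the counts in 8 of 11 libraries, and which copy it is differs within groups.

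Between the macrophage populations the classes went different ways. The MAM table held 46 of the 67 members, 5 H1, 11 H2A, 11 H2B, 10 H3 and 9 H4 genes. The sums cover these alone. H1 summed to 94.9, 68.9 and 85.7 CPM in F4/80hi MAM and to 168, 153 and 179 CPM in F4/80int MAM (log2 ratio -1.0), and H2A to 39.8, 36.6 and 39.2 against 55.9, 49.0 and 63.4 CPM (-0.54). H2B was higher in F4/80hi MAM, at 53.4 ± 3.74 against 44.0 ± 3.76 CPM (0.28), and so was H3, at 11.0 ± 1.37 against 5.85 ± 1.35 CPM (0.92). None of these 4 classes overlapped, and H4 did (0.13). All classes together were at 200 ± 17.2 CPM in F4/80hi MAM and 285 ± 25.6 in F4/80int MAM (-0.51). H1f2 held much of that difference, for without it the sums were 126 ± 5.26 and 129 ± 14.1 CPM (-0.03), an alternative added after the data were seen. H1 took 37.6 to 43.6% of member counts in F4/80hi MAM and 57.4 to 59.5% in F4/80int MAM.

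Member by member, few genes were called lower in F4/80hi MAM, and the share called higher was nearer to that of all genes. edgeR called 16 of 45 members higher and 4 lower, where 27.8% of all genes were called higher and 27.2% lower (55.0% in either direction). The median log2 fold change was 0.51 over members, 32 of them higher by direction, and 0.01 over all genes. The libraries did not overlap for 14 members that were higher (29.9% of all genes) and 5 that were lower (28.6%). H3c10 and H3c13 passed the filter on low counts through F4/80hi MAM alone, the group where they are high, so their calls are no support; without them 14 of 43 members (32.6%) were called higher and 4 (9.30%) lower. The calls differed by level. Of the 6 members with a mean of at least 5 CPM, which hold 82.0% of the member CPM, 3 were called lower and 0 higher. By direction 4 of these were lower and 2 higher. Of the 39 others 1 was called lower and 16 higher, with 9 lower and 30 higher by direction. The shares of all genes called at these levels are not given here, so a link between level and direction was not tested.

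The members that fell in F4/80hi MAM were linker and H2A genes. H1f2 had 86.0, 61.0 and 75.1 CPM in F4/80hi MAM and 159, 143 and 167 CPM in F4/80int MAM (log2 fold change -1.08 ± 0.13, SE; adjusted p = 0.000280). H2ac19 had 11.0, 11.8 and 12.5 against 25.7, 22.2 and 31.7 CPM (-1.17 ± 0.14, adjusted p = 0.000282). H2ac25, of the small chromosome 11 group, had 18.9, 13.3 and 17.6 against 25.7, 20.8 and 25.4 CPM (-0.53 ± 0.15, adjusted p = 0.0197). H1f4 had 2.79, 2.62 and 3.83 against 4.66, 4.51 and 5.49 CPM (-0.66 ± 0.22, adjusted p = 0.0363) and lost its call without F4/80hi MAM 1 or F4/80int MAM 3. For none of the 4 did the groups overlap.

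The other called linker genes went the opposite way. H1f1 had 1.08, 0.779 and 0.811 CPM in F4/80hi MAM and 0.460, 0.410 and 0.303 in F4/80int MAM (1.16 ± 0.36, adjusted p = 0.0269), and H1f5 had 1.26, 1.38 and 1.43 against 0.591, 0.683 and 0.649 CPM (1.08 ± 0.29, adjusted p = 0.0149). H1f3 overlapped, at 3.83, 3.08 and 4.61 against 3.35, 4.30 and 5.32 CPM. Besides the 2 H1 genes, those called higher were 4 H2A genes, H2ac4, H2ac8, H2ac11 and H2ac24, 5 H2B genes, H2bc3, H2bc6, H2bc9, H2bc11 and H2bc24, and 5 H3 genes, H3c3, H3c4, H3c8, H3c10 and H3c13. No H4 gene was called; H4c9, at 9.46, 9.35 and 6.58 against 7.62, 6.45 and 8.47 CPM, overlapped, and so did H4c4. H3c4 had 2.88, 2.83 and 2.63 CPM in F4/80hi MAM and 0.821, 0.956 and 0.951 in F4/80int MAM (1.61 ± 0.25, adjusted p = 0.000991). H3c13, which passed the filter through F4/80hi MAM alone, had 0.720, 0.957 and 0.551 against 0.0657, 0.0341 and 0.216 CPM. H2bc6 is the weakest of the calls, with 1.04, 2.27 and 1.72 against 0.591, 1.09 and 1.04 CPM (0.89 ± 0.39, adjusted p = 0.0931), overlapping groups and a call kept without 1 of the 6 libraries. H2bc4 just missed it, with 36.0, 26.6 and 29.7 against 23.7, 23 and 28.3 CPM (adjusted p = 0.1003). H3c4, H3c13 and the lists of symbols here are outside the rule for named genes and were chosen after their values were seen. Among the members called higher, H2ac4, H2ac8 and H2bc9 each lost the call with some library left out.

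**Figure D5:**
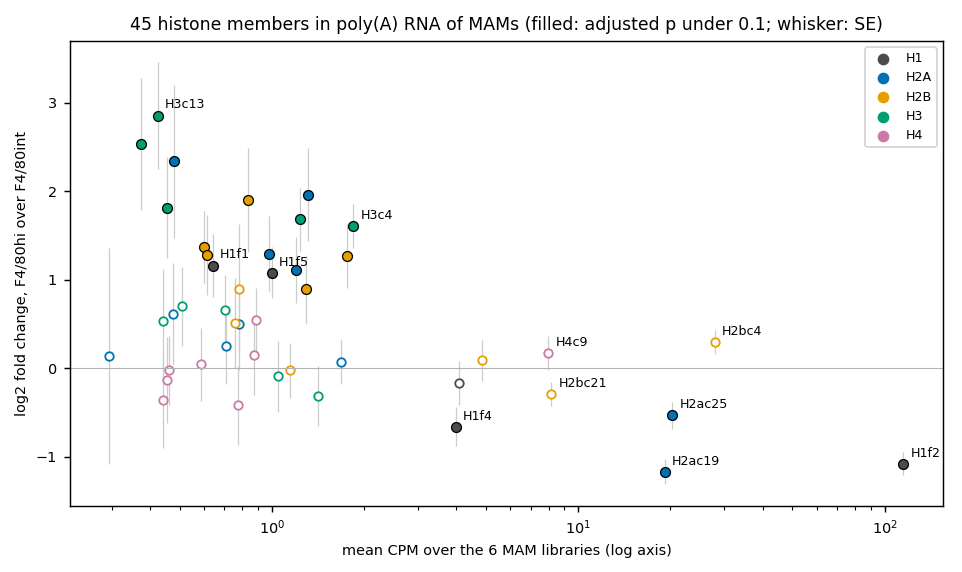
Mean level (CPM, log axis) of each of the 45 tested members over the 6 MAM libraries against its log2 fold change, F4/80hi over F4/80int MAM, with the SE as whisker. Members above 5 CPM were called lower or not at all, and the 16 called higher lie below 5 CPM.

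The MAM libraries were poly(A)-selected, so where a member's annotated transcript ends bears on what was counted. The annotation ends near the stem-loop for 21 members, runs on past it for 23, and has no exon over it for 20. For H1f2 it runs on for 840 bases past the stem-loop. In MAMs 15 of the 21 were tested, 21 of the 23 and 7 of the 20. Of those tested, H3c10 and H3c13 included, 6, 5 and 5 were called higher and 1, 3 and 0 lower, with median log2 fold changes of 0.51, 0.15 and 1.16. No library here tells polyadenylated from stem-loop ends, so the part of either in these values was not tested.

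The genes that make and mature histone mRNA gave few calls in lymphocytes. Of 21 tested processing and transcription genes, none was called in any of the 5 lymphocyte comparisons by edgeR. Slbp was at 115 ± 3.1 CPM in MFL NK, 157 ± 10.4 in LM CD49a- NK, 117 ± 19.4 in MFL ILC1 and 122 ± 19.4 in LM CD49a+ NK. Npat, the co-activator of histone gene clusters, was at 90.8, 61.4 and 34.8 CPM in LM CD49a+ NK, 12, 14.8 and 36.3 in LM CD49a- NK, 60.3, 33.9 and 38.4 in MFL NK and 12.6, 33.8 and 37.1 in MFL ILC1, with overlap in every pair of groups. Among histone genes listed as replication-independent, H2az1 fell in MFL ILC1 against MFL NK, at 60.1 ± 6.64 against 224 ± 67.0 CPM (log2 fold change -1.90, adjusted p = 0.0207 by edgeR). H2ax rose in LM CD49a+ NK against MFL ILC1, at 88.9 ± 28.5 against 32.7 ± 13.5 CPM (1.44, adjusted p = 0.0682 by edgeR). H3f3b, which encodes a replacement H3, had means of 698 to 784 CPM in the 4 populations. Of 20 histone chaperones 2 rose in LM CD49a+ NK against MFL ILC1, Nap1l1 (1.20, adjusted p = 0.0313) and Npm1 (0.98, adjusted p = 0.0668), and none was called in the other lymphocyte comparisons.

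Cell cycle genes were read beside the members because histone genes are transcribed in S phase. Of 30 S phase genes, 4 were higher in LM CD49a+ NK than in MFL ILC1 (median log2 fold change 1.13), and 1, Mcm7, was higher than in LM CD49a- NK (median 0.63). Mcm7, a subunit of the replicative helicase, was at 147, 117 and 89.2 CPM in LM CD49a+ NK and 41.4, 44.6 and 44.0 in LM CD49a- NK (1.44 ± 0.29, SE; adjusted p = 0.0905), and kept that call without 3 of the 12 libraries. Pcna, the sliding clamp of the replication fork, did not follow the histone sums, with 148 ± 20.2 CPM in MFL ILC1, 143 ± 25.4 in LM CD49a+ NK, 119 ± 3.01 in MFL NK and 116 ± 27 in LM CD49a- NK. Of 20 G2/M genes, 5 were higher in LM CD49a+ NK than in MFL ILC1 (median 2.78) and 2 were lower in MFL ILC1 against MFL NK (median -1.49). Mki67, a marker of cycling cells, was at 611, 331 and 665 CPM in LM CD49a+ NK and 132, 140 and 59.3 in MFL ILC1 (2.28, adjusted p = 0.00162), and Top2a, a mitotic topoisomerase, at 328, 235 and 230 against 36.5, 52.8 and 25.2 CPM (2.79, adjusted p = 0.000274). Against MFL NK both were also lower in MFL ILC1 (Mki67 -1.35, adjusted p = 0.0574, and Top2a -1.62, adjusted p = 0.0172). The 20 genes summed to 1002 to 1518 CPM in LM CD49a+ NK, 382 to 730 in LM CD49a- NK, 534 to 697 in MFL NK and 139 to 329 in MFL ILC1. Against LM CD49a- NK 0 of them were called (median 2.33).

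In MAMs the cell cycle lists were higher in F4/80hi MAM and the sum of all histone classes was lower, though not every class sum was. The log2 ratio of that sum, -0.51, was -0.03 without H1f2, which was left out after the data were seen. The H2B and H3 sums were higher in F4/80hi MAM (0.28 and 0.92). All 30 S phase genes and all 20 G2/M genes were higher in F4/80hi MAM by edgeR, with median log2 fold changes of 1.11 and 1.44. Mki67 was at 450, 456 and 449 CPM in F4/80hi MAM and 155, 194 and 150 in F4/80int MAM (1.44, adjusted p = 3.00e-05), and Pcna at 255, 274 and 219 against 157, 146 and 142 CPM (0.75, adjusted p = 0.000564). The other lists are to be read against the 27.8% of all genes called higher and 27.2% called lower. Of 21 processing and transcription genes 9 rose and 1 fell. Slbp was at 75.2 ± 11.2 against 58.3 ± 1.45 CPM (0.37, adjusted p = 0.0256), Npat rose by 0.49 (adjusted p = 0.0205) and Ccne2, an S phase entry cyclin, by 1.85 (adjusted p = 0.000184). Of 20 chaperones 11 rose, Chaf1a, the large subunit of the replication-coupled assembly factor, by 1.21 (adjusted p = 0.000179), and 3 fell. Of 11 replication-independent histones 4 rose and 5 fell, H3f3b among the latter at 1154, 992 and 1019.8 against 1602, 1245 and 1623 CPM (-0.50, adjusted p = 0.0122). Without scaling factors the median of all genes shifted by 0.147 log2, 17 members were called higher and 4 lower, and the share of all calls that were higher went from 50.6 to 64.9%.

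Sums over marker lists of other cells also differed between the sorted groups, and the part of other cells in the histone differences was not tested. The 7 T cell markers summed to 249 to 680 CPM in MFL ILC1 and to at most 35.7 CPM in the NK populations, and the 6 B cell markers to 138 to 184 CPM in MFL ILC1, 30.3 to 73.1 in MFL NK, 15.9 to 83.1 in LM CD49a- NK and 117 to 121 in LM CD49a+ NK. The 10 macrophage and monocyte markers ran the other way, at 183 to 333 CPM in MFL ILC1, 1119 to 1521 in MFL NK, 1065 to 1391 in LM CD49a- NK and 616 to 926 in LM CD49a+ NK. That list includes Itgam, which encodes CD11b. The paper reports CD11b on most NK cells within metastases, so this sum is not specific to macrophages. The 7 epithelial markers listed for tumor epithelium were at 67.1 to 104 CPM in MFL ILC1, 8.25 to 13.3 in MFL NK, 3.32 to 25.9 in LM CD49a- NK and 30.2 to 51.4 in LM CD49a+ NK. The highest of these sums were in a population of metastasis-free liver, and which cells they came from was not tested. Kupffer cell markers were at 0 in both metastasis groups and at most 5.52 CPM elsewhere. In MAMs the 6 dendritic cell markers summed to 230 to 347 CPM in F4/80int MAM and 8.43 to 11.2 in F4/80hi MAM, and the 3 tumor epithelium markers of the table to 198 to 284 against 9.63 to 12.8 CPM. The 10 macrophage markers were at 19559 to 25397 CPM in F4/80hi MAM and 11640 to 14393 in F4/80int MAM.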

How the data were processed

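Bulk RNA-seq of 12 lymphocyte libraries (SMARTer Stranded Total RNA pico kit) and 6 MAM libraries (Nextflex directional kit, poly(A)-selected) was used. The authors trimmed lymphocyte reads with Trim Galore and quantified them with Salmon 1.5.0 on GENCODE M27 (GRCm39) with decoys; per the labels, MAM reads were quantified with Salmon 1.10.0 on GRCm39. The MAM annotation release and the filter that left 13759 genes are not given in the sources used here. Both deposited tables hold estimated counts per gene, already whole numbers as deposited (54309 genes in the lymphocyte table), summed by the authors from transcripts. Salmon shares reads of near-identical copies between them by its model, which can move counts from one copy to another. The tables were analysed separately.

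Genes with at least 10 counts in at least 3 libraries were tested with edgeR 4.0.16 (R 4.3.3), with TMM scaling, a quasi-likelihood fit and Benjamini-Hochberg adjustment over all tested genes; 0.1 was the threshold, the study's false discovery rate. All 12 lymphocyte libraries shared 1 fit. SEs are the absolute log2 fold change divided by the square root of F and are approximate. CPM used TMM-scaled totals. Class sums covered the annotated members of a class that the table held, all 67 in the lymphocyte table and 46 in the MAM table. Fold changes of named genes are given only where they reach their SE or were called under some setting, and where no group had 2 or more libraries at 0. LM CD49a+ NK were grouped by their population label, although their titles name them ILC1. The study states 3 independent sortings, which the labels do not tie to replicate numbers, so p-values measure the spread between these samples.

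Members and lists were chosen with earlier results of these data known. Named genes were H1f1 to H1f5, the 2 most abundant H2A, H2B, H3 and H4 members in lymphocytes, up to 3 called members with the largest change per comparison and direction at a mean of at least 5 CPM, the signature genes H2ac10 and H2bc23, and, of the other lists, Slbp, Npat, Mki67, Pcna, H2az1, H3f3b and the called gene of each list with the largest change. Positions, stem-loops and shared 31-base words were read from the GRCm39 reference with a later GENCODE release than the study's; all 67 member identifiers matched, 57 with the same version. DESeq2 1.42.0, other scalings, other filters, a replicate block and leaving out each library were alternatives. The fit was run on simulated data with planted changes larger than most member fold changes reported here. That run does not show how well changes of the reported size are found. Intervals of counting error were not computed.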

Additional observations from a re-analysis of the deposited data

How the results depend on the processing

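The members called higher in LM CD49a+ NK against LM CD49a- NK, 1 in the reported fit, were 5 with DESeq2, 4 without the low-count filter, 0 with a replicate block and 0 to 2 with a library left out (2 without LM CD49a- NK 3, 1 without LM CD49a+ NK 3, 0 without each of the others). In LM CD49a+ NK against MFL NK the count higher went from 0 to 1 without the filter. In LM CD49a- NK against MFL NK the count lower went from 0 to 1 with DESeq2 and without the filter, and was 0 to 1 with a library left out. In MFL ILC1 against MFL NK the count lower, 3 as reported, was 6 with DESeq2, 13 without the filter, 5 with the replicate block and 0 to 6 with a library left out. In LM CD49a+ NK against MFL ILC1 the count higher, 7 as reported, was 19 with DESeq2, 20 without the filter, 9 with the replicate block and 2 to 12 with a library left out. How many of all genes were called without the filter or with a library left out is not given here. Those member counts therefore cannot be set against a share of all genes. The cause of these changes was not tested. In MAMs the counts were 13 to 15 higher and 3 to 4 lower with a library left out. The log2 ratio of the MAM sum of all classes, -0.51, was -0.37 with library totals, -0.033 without H1f2 (chosen after seeing the data) and -0.58 to -0.44 with a library left out. H1f5 in LM CD49a+ NK against MFL NK, 0.87, was between -0.15 and 1.20 with a library left out. Over all genes DESeq2 called 554, 367, 159, 666, 1016 and 7174 where edgeR called 19, 88, 10, 414, 485 and 7519, in the order of the report, and the replicate block gave 24, 102, 15, 449, 488 and 7478. Under the block the adjusted p of H4c4 in the first comparison was 0.102 with a log2 fold change of 1.87. Deviations of same-numbered libraries correlated at -0.046 to 0.098 in 18 lymphocyte pairs, 12 of them above 0 and 0 above 0.1, and at -0.015 to 0.165 in 3 MAM pairs. By number, 8 of 12 lymphocyte libraries correlated best with a library of their own number, where 4 would if all candidates were alike, and 2 of 6 MAM libraries, where 2 would. That is a hint from the data and not from the labels, short of the correlation above 0.1 in every pair that was required to treat numbers as pairs, so the fits without the block were kept. Counting each named value under each alternative, 2498 results kept their direction and side of the threshold, 63 passed it newly, 94 lost it, 1 reversed, and 2 class sums differed by more than the replicate spread; of the member counts and total sums under each alternative, 271 stayed close to the reported value and 36 did not. With 3 libraries per group, differences within the spread of the replicates were not detectable.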
